A study of Mus musculus with 9 samples.

Results

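Solute carriers are membrane proteins that move ions, metals, nutrients and metabolites across the plasma membrane and the membranes of mitochondria, lysosomes and other organelles, mostly as facilitators, exchangers or ion-coupled symporters. In macrophages they set the supply of iron, zinc and copper, of arginine and other amino acids, of glucose and lactate, and of protons and ions in the phagosome. The genes described here carry a symbol of the form Slc, family number, letter a and member number, and had an authors' mean of at least 50 normalized counts in the comparison of TTP-AA with TTP. There were 163 such genes among the 11143 genes with a mean of at least 50. They came from 44 families on 20 chromosomes, and all 163 matched a protein-coding gene of the mouse annotation. The symbols Slc4a1ap, Slc7a6os and Slc9a3r1 belong to 3 adaptor or associated proteins that are not carriers, and they are kept as a class of their own. The families of nucleotide sugar and organic anion carriers with other letters in the symbol (Slc35b to Slc35f, Slco) are not covered by the rule. A further 23 carrier symbols were listed with a lower mean. The nearest of these were Slc22a15 (48.7), Slc7a14 (49.0) and Slc25a42 (49.6), and the lowest genes kept were Slc1a4 (73.0), Slc22a21 (75.2) and Slc9a9 (81.0).

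Tristetraprolin (TTP, gene Zfp36) binds AU-rich elements in the 3′ untranslated region (UTR) of mRNAs and recruits the machinery that removes the poly(A) tail, so that bound mRNAs are degraded. The kinase MK2 phosphorylates TTP at 2 serines after a stimulus such as lipopolysaccharide (LPS), which lowers this activity. All 9 libraries came from immortalized bone marrow-derived macrophages of TTP-deficient mice, made with the oncogenes hcmyc and hRasG12V. The cells carried a doxycycline-inducible retroviral vector for GFP alone (3 libraries), for GFP-TTP (called TTP here, 3 libraries) or for GFP-TTP-AA (called TTP-AA, 3 libraries), in which the serines S52 and S178 are replaced by alanine and cannot be phosphorylated by MK2. Each group received doxycycline at 1 µg/ml for 6 h and LPS at 1 µg/ml for 1 h. The GFP-positive cells were sorted, and rRNA-depleted total RNA was sequenced. Since no library without doxycycline was analysed here, a difference that the cell populations had before induction cannot be told apart from one that followed it.

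The table of values per library holds fitted means, not free counts: on the log2 scale every value equals a library term plus a term for the replicate number plus a term for the group, to within 1.24e-14. A level below is therefore a scaled fitted count, a difference is the log2 ratio of group means, and the spread between the 3 libraries of a group is the same in each group. This spread does not hold the scatter of a library around its own group, so no test between groups could be made and no p-value is given. The counts below use a fold of at least 1.5 (0.58 on the log2 scale) and say whether the 3 libraries of one group overlapped those of the other. The 3 comparisons share libraries in pairs, so their values are given side by side and are not independent of each other. The fitted totals ran from 21482954 in TTP replicate 1 to 102613526 in TTP-AA replicate 3. The targeted gene, Zfp36, stood at 1751, 1426 and 885 in GFP, 1783, 1443 and 903 in TTP and 2854, 2319 and 1441 in TTP-AA, a log2 difference of 0.68 between TTP-AA and TTP and of 0.02 between TTP and GFP. The level of this gene thus did not separate the libraries labelled TTP from those labelled GFP and gives no check of that label. The vectors hold the coding sequence only, and how the reads divide between vector and disrupted gene was not tested. The summed level of 9 macrophage markers was 492802 or more in every library, with Mertk the lowest of them (at most 21.1), whereas 8 of 10 markers of other cells stayed below 10. The summed level of those 10 was 132 to 203 in GFP, 131 to 203 in TTP and 212 to 334 in TTP-AA, most of it from the neutrophil gene S100a8 (log2 difference 0.77 between TTP-AA and TTP). Of the macrophage markers, Emr1 (F4/80) differed by -0.77, 0.69 and 1.46 and Fcgr1 by -1.22, -0.38 and 0.84 for TTP against GFP, TTP-AA against GFP and TTP-AA against TTP. In the last comparison Lyz2 differed by 0.49, Ptprc by -0.31 and the other 5 by 0.11 to 0.28. The part of these shifts in the results below was not tested. In such bulk RNA, fewer cells of a kind and less RNA per cell cannot be told apart.

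The classical AU-rich nonamer TTATTTATT was looked for in the 3′ UTR of the longest coding transcript of each gene, on the transcribed strand, together with its core TATTTAT, which the nonamer contains. It was present in 13 of the 160 carrier genes with an annotated 3′ UTR (8.13%), against 7.23% of the 10269 genes of the table with one. The core was found in 51 of 160 (31.9%) and in 27.9% of all genes, while the median 3′ UTR was 1349.5 bases in the carrier genes and 982 bases over all genes. The sites below are shown for 4 of the carriers that hold the nonamer and recur in the text. They are the sulfate and anion carrier Slc26a11, the zinc exporter Slc30a1, the sugar phosphate exchanger family member Slc37a1 and the myo-inositol symporter Slc5a3. Capitals mark the nonamer, 5′ to 3′, in GRCm38.
Slc26a11 chr11:119380966-119380994 (+): taattgtgaaTTATTTATTgtgatgatca
Slc26a11 chr11:119381030-119381058 (+): aatacaagatTTATTTATTgtattaaaat
Slc30a1 chr1:191911739-191911767 (+): ttttagagaaTTATTTATTtctttacaat
Slc37a1 chr17:31350540-31350568 (+): ccacagggatTTATTTATTttaaatgtat
Slc37a1 chr17:31350601-31350629 (+): tggcattttgTTATTTATTaaggcaaacc
Slc5a3 chr16:92084810-92084838 (+): tgtattaatgTTATTTATTcatctttatt

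Differences among the 13 genes with the nonamer ran from -0.75 to 0.42 for TTP against GFP. They ran from -0.47 to 0.13 for TTP-AA against GFP and from -0.41 to 0.41 for TTP-AA against TTP. In that order, 10, 10 and 7 of the 13 were below 0, as were 35, 38 and 31 of the 51 with the core. So were 56, 49 and 54 of the 109 without it, and 5667, 5531 and 5533 of all 11143 genes. This was not tested. The median log2 difference of the 13 was -0.17 for TTP against GFP, -0.16 for TTP-AA against GFP and -0.02 for TTP-AA against TTP. The 51 genes with the core had medians of -0.08, -0.13 and -0.03, and the 109 without it -0.01, 0.02 and 0.02, in the same order. Of the 13, Slc26a11 was the only one past 1.5-fold in any comparison (7.69%, background 10.7%). It stood at 186, 189 and 137 in GFP, 110.2, 112 and 81.4 in TTP and 147, 149.5 and 108 in TTP-AA. All its TTP libraries lay below all its GFP libraries (-0.75), and its TTP-AA libraries overlapped both. Slc30a1, with 766, 754 and 917 in GFP, 1027, 1004 and 1233 in TTP and 836, 821 and 1000.3 in TTP-AA, was on the higher side in TTP (0.42, no overlap with GFP). Slc37a1 differed from GFP by -0.28 in TTP and by -0.47 in TTP-AA, and Slc5a3 differed by 0.14 and -0.27. The exons of Slc5a3 overlap those of Mrps6 on the same strand, so its value is uncertain. The presence of these letters does not show that TTP binds there.

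Across the 163 genes the differences were centred close to 0. The median was -0.02 for TTP against GFP (71 genes above 0 and 92 below), -0.03 for TTP-AA against GFP (75 above, 88 below) and -0.02 for TTP-AA against TTP (76 above, 87 below), where the medians over all 11143 genes were 0.00 each time. The SD of the differences was 0.30, 0.31 and 0.40 over the carrier genes and 0.28, 0.31 and 0.42 over all genes. For TTP against GFP, 1 carrier gene was at least 1.5-fold higher (background 0.942% of all genes) and 8 were lower (4.91%, background 2.6%). For TTP-AA against GFP, 5 were higher (3.07%, background 3.5%) and 6 lower (3.68%, background 1.95%). For TTP-AA against TTP, 9 were higher (5.52%, background 5.89%) and 4 lower (2.45%, background 2.84%). In all, 20 carrier genes passed this fold in at least 1 comparison (12.3%, background 10.7%). The libraries of the 2 groups did not overlap in 40 genes for TTP against GFP (24.5%, background 19%), in 49 for TTP-AA against GFP (30.1%, background 24.4%) and in 51 for TTP-AA against TTP (31.3%, background 30.1%). With both criteria, 0 genes were higher (background 0.879%) and 8 lower (background 2.17%) for TTP against GFP, 5 higher (background 2.66%) and 6 lower (background 1.67%) for TTP-AA against GFP, and 8 higher (background 4.85%) and 4 lower (background 2.55%) for TTP-AA against TTP. TTP and TTP-AA lay on opposite sides of GFP without overlap in 4 genes (2.45%, background 4.48%), Slc6a13, Slc43a3, Slc4a8 and Slc52a2. The shares for TTP-AA against TTP were close to those of all genes, whereas the shares lower than GFP were above their background for both TTP and TTP-AA. The latter rest on 8 and 6 genes, with Slc24a3 in both, are measured from the same GFP libraries and were not tested. Of the 8 genes lower in TTP, 6 had a mean below 200. Of the 20 genes, 8 had a mean below 200, as had 18 of all 163. With another scaling, 1 library left out or the chromosome median taken off, Slc36a2 and Slc9a9 no longer passed the fold for TTP against GFP. The same held for Slc43a3, Slc15a3, Slc31a2, Slc4a8, Slc24a3 and Slc6a17 for TTP-AA against GFP, and for Slc39a3, Slc31a2, Slc12a2 and Slc9a7 for TTP-AA against TTP. With fitted values, leaving out a library only makes the replicate numbers compared unequal, so it cannot show how firm a group difference is. A setting other than a left-out library did the same only for Slc43a3, Slc15a3, Slc6a17 and Slc39a3.

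**Figure D1:**
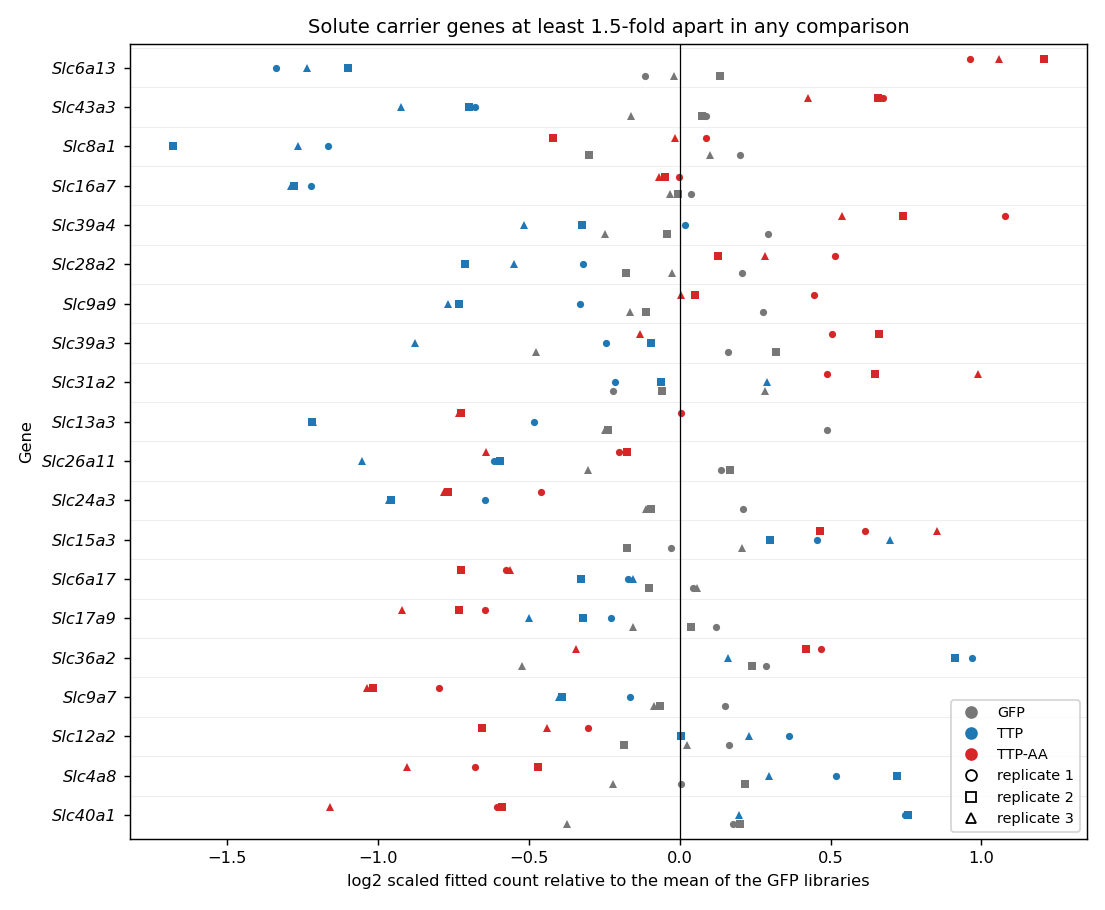
Levels of the 20 solute carrier genes at least 1.5-fold apart in any comparison (y axis), as log2 scaled fitted count relative to the mean of the GFP libraries (x axis); each point is 1 library, coloured by group and shaped by replicate number. Slc6a13 and Slc43a3 show TTP to the left and TTP-AA to the right of all GFP points, Slc4a8 the reverse, and in Slc39a3 and Slc36a2 the groups overlap.

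The amino acid and peptide carriers (28 genes) held the largest difference of all carrier genes. Slc6a13, the plasma membrane transporter GAT2 for γ-aminobutyric acid and taurine (chr6:121300227-121337733, + strand), stood at 397, 471 and 424 in GFP, 169.9, 200.5 and 182 in TTP and 837, 992 and 896 in TTP-AA. The groups were fully separated, with TTP lowest and TTP-AA highest. The group means were 431 ± 37.6, 184 ± 15.4 and 908 ± 78.2 (SD over 3 libraries of fitted values, which holds no scatter around the group). That is 2.34-fold lower in TTP than in GFP, 2.11-fold higher in TTP-AA than in GFP and 4.93-fold higher in TTP-AA than in TTP. Its neighbour Slc6a12, the betaine transporter BGT1, lies 5.34 kb away and was at 1673, 2129.9 and 1559 in the GFP libraries, 1644, 2079 and 1536 in the TTP libraries and 2327, 2955 and 2167 in the TTP-AA libraries. TTP and GFP overlapped for this gene (-0.03) and TTP-AA lay above TTP by 0.50, short of 1.5-fold.

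Slc15a3, a lysosomal carrier of histidine and peptides, was at 5443, 4918 and 6415 in GFP, 7627, 6845 and 9011 in TTP and 8517, 7676 and 10033 in TTP-AA. Both TTP (0.48) and TTP-AA (0.64) lay above GFP without overlap, TTP-AA past 1.5-fold, and the 2 overlapped each other. The median of all genes on chromosome 19 was itself 0.20 for TTP against GFP and 0.12 for TTP-AA against GFP, and its exons overlap Tmem132a on the other strand. Slc6a17, a vesicular carrier of neutral amino acids, showed 692, 625 and 698 in GFP, 595, 534 and 602 in TTP and 450.1, 406 and 454 in TTP-AA. It was lower in TTP-AA than in GFP (-0.62) and than in TTP (-0.40), with all groups apart, and the chromosome 3 medians for these were -0.11 and 0.10. Slc36a2, a proton-coupled carrier of small amino acids and the only carrier gene past 1.5-fold higher in TTP than in GFP (0.68), was near the low end at 78.6, 76.2 and 44.8 in the GFP libraries, 126, 122 and 72.2 in the TTP libraries and 89.2, 86.3 and 50.9 in the TTP-AA libraries. Its replicate 3 was low in every group, and all 3 groups overlapped.

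The other amino acid carriers known in macrophages had smaller differences. Slc7a2 (CAT2), the cationic amino acid transporter that supplies arginine to nitric oxide synthase, had log2 differences of 0.08, 0.52 and 0.43 for TTP against GFP, TTP-AA against GFP and TTP-AA against TTP, with overlap in each and a spread over replicate numbers of 1.07. In the same order, values were 0.03, -0.22 and -0.25 for Slc7a1 (CAT1), 0.16, 0.34 and 0.18 for Slc3a2 (the 4F2 heavy chain) and 0.14, 0.25 and 0.11 for its partner Slc7a5 (LAT1). The glutamine carriers gave 0.21, 0.05 and -0.16 for Slc1a5 (ASCT2) and -0.02, -0.20 and -0.18 for Slc38a2 (SNAT2), and the endolysosomal Slc15a4 gave 0.13, 0.32 and 0.20. Of these genes, TTP-AA was apart from GFP in Slc3a2 and Slc15a4, on the higher side. Over the whole class the median for TTP-AA against GFP was 0.14, with 17 genes above 0 and 11 below.

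Among the 26 metal carriers none was past 1.5-fold between TTP and GFP, 2 were higher (7.69%, background 3.5%) and 1 lower (3.85%, background 1.95%) in TTP-AA than in GFP, and 3 were higher (11.5%, background 5.89%) and 1 lower (3.85%, background 2.84%) in TTP-AA than in TTP. Slc40a1, ferroportin, the iron exporter (chr1:45908068-45926523, − strand), had 489, 497 and 334 in GFP, 726, 732 and 496 in TTP and 284, 288 and 194 in TTP-AA. TTP-AA was the lowest group with no overlap, 1.72-fold below GFP and 2.55-fold below TTP. TTP was above GFP by 0.57, just short of the fold, and overlapped it through replicate 3. Slc39a4, the zinc importer ZIP4 (chr15:76612383-76617384, − strand), ran the other way, at 635, 504 and 437 in GFP, 526, 415 and 363 in TTP and 1096, 867 and 753 in TTP-AA. Its TTP-AA libraries were all above the rest, 2.08-fold over TTP and 1.72-fold over GFP, while TTP and GFP overlapped.

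Slc31a2, the copper carrier CTR2, showed 2054, 2301 and 2912 in the GFP libraries, 2063, 2295 and 2931 in the TTP libraries and 3359.8, 3754 and 4759.5 in the TTP-AA libraries. TTP and GFP coincided (0.00) and TTP-AA was above both by 0.71 and 0.70. The high-affinity copper importer Slc31a1 (CTR1), 62.3 kb away, differed by -0.02, 0.23 and 0.25 in the 3 comparisons, with overlap in each. Slc39a3, the zinc importer ZIP3, had levels of 1014, 1131 and 652 in GFP, 767, 849.7 and 494 in TTP and 1288, 1434 and 828 in TTP-AA, and the TTP-AA mean exceeded that of TTP by 0.75. Its replicate 3 was low in every group, the spread over replicate numbers was 0.80, and the groups overlapped. Of the iron and divalent metal carriers, Slc11a1 (NRAMP1), which moves metals out of the phagosome, was at 7451, 6392 and 6207 in GFP, 7335, 6250.4 and 6125 in TTP and 9850.2, 8429 and 8201 in TTP-AA. It was higher in TTP-AA without overlap, by 0.40 over GFP and 0.43 over TTP, short of 1.5-fold. Slc11a2 (DMT1) gave 0.04, 0.48 and 0.45, the heme carrier Slc48a1 0.24, 0.24 and 0.00, Slc39a14 (ZIP14) 0.22, -0.03 and -0.25, and Slc30a1, in which TTP was the highest group, 0.42, 0.13 and -0.30.

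The carriers of inorganic ions, protons and phosphate (23 genes) held 7 of the 20 genes past 1.5-fold (30.4% of the class, background 10.7% in any comparison). Of the 7, Slc8a1, Slc9a9, Slc24a3, Slc4a8 and Slc26a11 had a mean below 200. The share was not tested. Slc8a1, the sodium-calcium exchanger NCX1 (chr17:81373105-81738377, − strand), had 243, 172 and 227 in GFP, 94.1, 66.0 and 88.0 in TTP and 225, 158 and 209 in TTP-AA. TTP stood alone below the others, 2.59-fold under GFP, with TTP-AA 2.39-fold above TTP and overlapping GFP. The exons of Slc8a1 overlap AC122399.1 and Gm11096 on the other strand. Slc9a9, the endosomal sodium-proton exchanger NHE9, also had TTP apart below both other groups, at 104, 79.1 and 76.4 in the GFP libraries, 68.1, 51.6 and 50.2 in the TTP libraries and 117, 88.6 and 85.8 in the TTP-AA libraries, with differences of -0.61, 0.17 and 0.78. Slc24a3, a potassium-dependent sodium-calcium exchanger, was at 165, 134 and 132 in GFP, 91.4, 73.5 and 73.3 in TTP and 104, 84.0 and 83.1 in TTP-AA, below GFP in both TTP (-0.86) and TTP-AA (-0.67) without overlap.

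Slc4a8, a sodium-driven chloride-bicarbonate exchanger (chr15:100761747-100823968, + strand), was lowest in TTP-AA and highest in TTP. Its levels were 191, 221 and 163 in GFP, 272, 313 and 233 in TTP and 119, 137 and 101 in TTP-AA. All groups were apart, with TTP above GFP by 0.51, TTP-AA below GFP (-0.69) and the TTP-AA mean 2.29-fold under that of TTP. Slc12a2, the sodium-potassium-chloride cotransporter NKCC1, was at 2242, 1762 and 2039.6 in the GFP libraries, 2577, 2011 and 2349.9 in the TTP libraries and 1624, 1272 and 1476 in the TTP-AA libraries, lowest in TTP-AA (-0.47 against GFP and -0.67 against TTP). Slc9a7 (NHE7), an exchanger of the trans-Golgi network, had 303, 261 and 257 in GFP, 243, 208 and 207 in TTP and 157, 135 and 133 in TTP-AA. TTP was below GFP (-0.32) and TTP-AA was below both (-0.95 and -0.63). The phosphate carrier Slc20a1 (PiT1), one of the highest of the class per length, gave 0.23, -0.12 and -0.35.

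Nucleoside and nucleobase carriers (5 genes) and carboxylate carriers (6 genes) each held 2 genes past the fold in any comparison (40% and 33.3%, background 10.7%, in classes of this small size). Slc43a3 was placed in the former class, and Slc16a10 outside the latter, by hand with the values known. Neither share is therefore independent of the values. Slc43a3, a carrier of purine nucleobases (chr2:84936579-84958509, + strand), had 1751, 1737 and 1474 in GFP, 1030.3, 1015 and 869.5 in TTP and 2630.1, 2602 and 2213 in TTP-AA. As in Slc6a13, the groups were fully apart with TTP lowest and TTP-AA highest, 2.55-fold over TTP. Its difference of TTP-AA from GFP (0.59) was just past the fold. Slc28a2, the sodium-coupled purine nucleoside carrier CNT2, was at 369.7, 284 and 315 in GFP, 257, 196 and 219 in TTP and 458, 350.4 and 389.8 in TTP-AA, lowest in TTP (-0.53 against GFP), and TTP-AA was above TTP by 0.83. Of the equilibrative nucleoside carriers, Slc29a2 differed by 0.45, 0.02 and -0.43 and Slc29a3 by -0.19, -0.04 and 0.15. The groups overlapped for both. Slc29a1, the highest of the class at 1761 scaled fitted counts per kb of transcript, differed by 0.19, 0.12 and -0.07. These differences were small, but no pair of groups overlapped.

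Slc16a7, the monocarboxylate carrier MCT2 (chr10:125219270-125389465, − strand), was the lowest carrier gene per length, at 117, 113 and 112 in the GFP libraries, 48.8, 47.0 and 46.6 in the TTP libraries and 114, 110.1 and 109 in the TTP-AA libraries. GFP and TTP-AA overlapped, and TTP was 2.4-fold below GFP. The replicate numbers differed very little for this gene (0.07), and its exons overlap Gm47862 on the other strand. Slc13a3, the sodium-dicarboxylate symporter NaDC3, showed 278, 168 and 167 in GFP, 141, 84.9 and 85.1 in TTP and 198, 119.7 and 119 in TTP-AA, lower in TTP than in GFP (-0.97). The lactate carriers, far more abundant, gave 0.13, 0.00 and -0.13 for Slc16a1 (MCT1) and 0.37, 0.18 and -0.19 for Slc16a3 (MCT4), with overlap throughout.

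**Figure D2:**
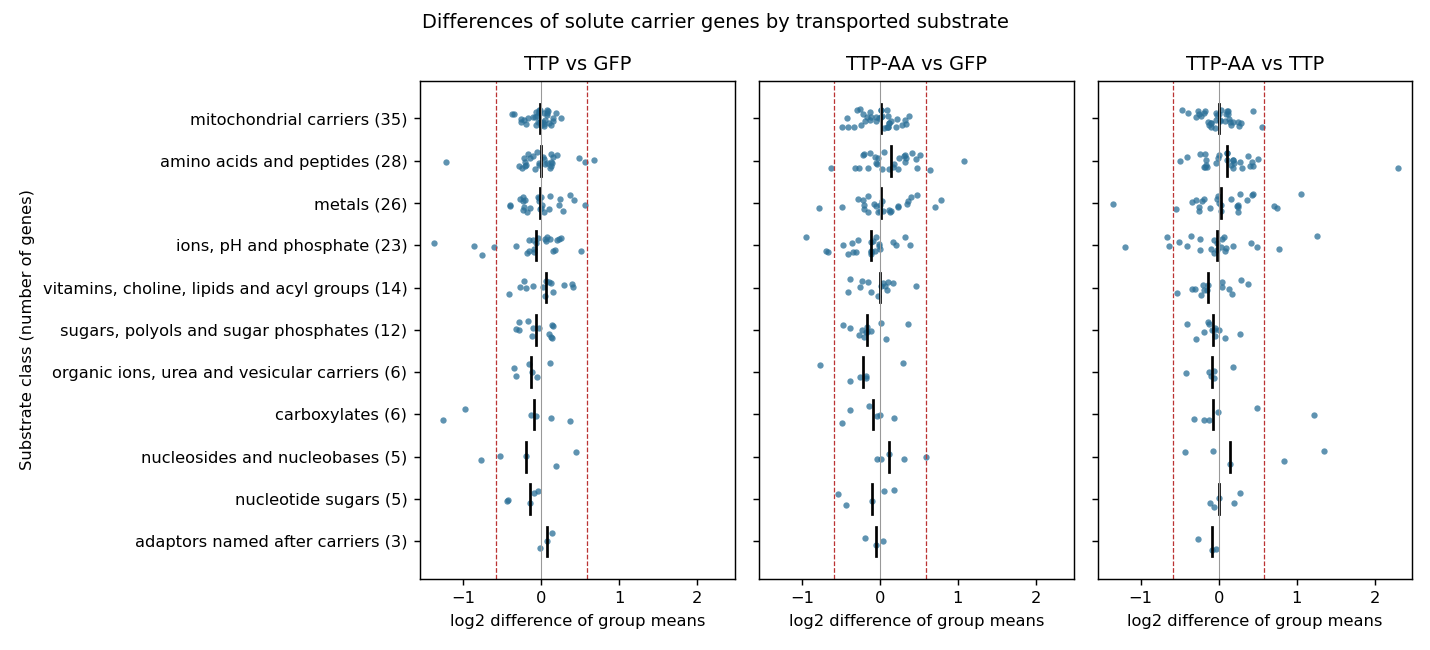
log2 difference of group means (x axis) for each of the 163 genes, by substrate class (y axis, number of genes in brackets), in 3 panels for TTP against GFP, TTP-AA against GFP and TTP-AA against TTP. Points are genes, black bars class medians and dashed lines 1.5-fold; the 35 mitochondrial carriers stay between the dashed lines in all panels, and the point farthest to the right is Slc6a13 at 2.30.

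Of the remaining classes, the organic ion, urea and vesicular carriers (6 genes) held a single gene past the fold. This was Slc17a9, which loads ATP into secretory vesicles and lysosomes, at 421, 397 and 348 in GFP, 330.3, 309.7 and 274 in TTP and 248, 233 and 205 in TTP-AA. Its TTP values were below GFP (-0.35) and its TTP-AA values were lower still (-0.77 against GFP), with no overlap between any pair. The carnitine carrier Slc22a5 was also lower in both TTP (-0.16) and TTP-AA (-0.25), by much less.

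No sugar, polyol or sugar phosphate carrier (12 genes) reached 1.5-fold in any comparison. Glucose carrier values were 0.15, 0.01 and -0.14 for Slc2a1 (GLUT1) and 0.10, 0.36 and 0.27 for Slc2a6 (GLUT6). Slc2a3 (GLUT3), which holds the nonamer, gave -0.33, -0.38 and -0.05. Its TTP and TTP-AA libraries all lay below its GFP libraries. Of the 13 genes with the nonamer, 3 were above 0 for TTP against GFP and 3 for TTP-AA against GFP. The endoplasmic reticulum exchanger Slc37a2 gave 0.12, 0.07 and -0.05. The vitamin, choline, lipid and acyl group carriers (14 genes) and the nucleotide sugar carriers (5 genes) had none either. In the former the 2 largest differences between TTP-AA and TTP were Slc44a2 (-0.53) and Slc44a1 (0.38), both of the choline carrier family, in opposite directions and each without overlap. The riboflavin carrier Slc52a2 stood at 1189.7, 1187 and 1113 in GFP, 1272, 1260.5 and 1193 in TTP and 999, 994 and 934 in TTP-AA, a small separation of all 3 groups (0.09, -0.25 and -0.35). All 5 nucleotide sugar carriers were below 0 for TTP against GFP, from -0.43 to -0.04, as were 5667 of all 11143 genes. Slc35a5 was apart from GFP in both TTP (-0.43) and TTP-AA (-0.54), as was Slc35a3 (-0.43 in each). This was not tested. The adaptor genes lay between -0.27 and 0.14 in the 3 comparisons.

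The mitochondrial carrier family Slc25 was the largest class, with 35 genes, and none of them passed 1.5-fold (background 10.7% in any comparison). Their differences ran from -0.38 to 0.26 for TTP against GFP, from -0.48 to 0.37 for TTP-AA against GFP and from -0.47 to 0.55 for TTP-AA against TTP, and the class SD was 0.15, 0.22 and 0.22. The highest value belonged to Slc25a44, a carrier of branched-chain amino acids, at 1345, 1122 and 1223 in GFP, 1158, 959 and 1055 in TTP and 1694, 1409 and 1539 in TTP-AA. Its TTP-AA libraries were all above those of the other groups, by 0.33 over GFP and 0.55 over TTP. At the other end, Slc25a23, an ATP-magnesium/phosphate carrier, had a TTP-AA mean under that of TTP (-0.47), a spread over replicate numbers of 0.88 and overlapping groups. The citrate carrier Slc25a1 gave -0.04, 0.10 and 0.15, the dicarboxylate carrier Slc25a10 0.03, 0.11 and 0.08, and mitoferrin 1 (Slc25a37), which imports iron, 0.05, 0.32 and 0.27. Slc25a39 gave -0.03, 0.10 and 0.13.

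The same class held 5 of the 10 carrier genes with the highest level per kb of transcript. Per kb, the phosphate carrier Slc25a3 was at 14208 scaled fitted counts and the ADP/ATP carriers Slc25a5 and Slc25a4 at 13799 and 8234, followed by Slc25a39 at 4685. Slc25a3 and Slc25a5 were within their spread of each other. Slc25a5 is a member of a family with close copies, between which reads may be divided, so its level is uncertain. The next places were close together, with the fatty acid carrier Slc27a1 at 3307, Slc2a6 at 3278, Slc25a11 at 3223, Slc11a1 at 3179, Slc15a3 at 3150.2 and Slc24a5 at 3056. The order of these genes was not the same in each group, with Slc25a11 the highest of them in GFP and in TTP and the lowest in TTP-AA, and Slc25a11, Slc15a3 and Slc24a5 overlap genes on the other strand. The median of the 163 genes was 462 per kb and the lowest was 8.26, for Slc16a7. Of the 4 genes with the largest differences between TTP-AA and TTP, Slc6a13 stood at 227 per kb, Slc43a3 at 659, Slc40a1 at 133 and Slc8a1 at 51.8. Slc31a2 (1614) and Slc15a3 were the genes past 1.5-fold with the highest levels.

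**Figure D3:**
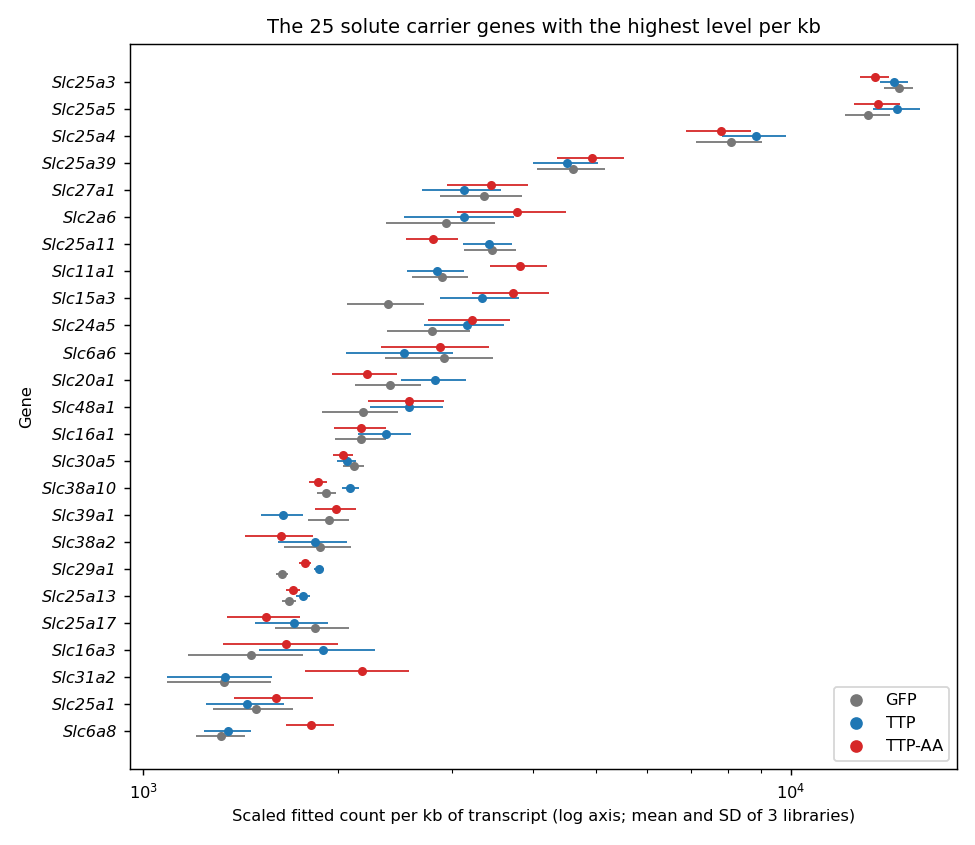
Scaled fitted count per kb of transcript (x axis, log scale) of the 25 solute carrier genes with the highest level, as the mean and SD of 3 libraries for GFP, TTP and TTP-AA. Slc25a3, Slc25a5 and Slc25a4 lead, and Slc31a2 and Slc11a1 show the TTP-AA mean to the right of both other groups.

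Of the 30 carrier genes listed for a known role in macrophages, none was past 1.5-fold between TTP and GFP. Slc40a1 (lower), Slc15a3 and Slc31a2 (both higher) passed it for TTP-AA against GFP, and Slc40a1 and Slc31a2 for TTP-AA against TTP. In this list 23 genes were above 0 and 7 below for TTP against GFP, likewise 23 and 7 for TTP-AA against GFP, and 17 and 13 for TTP-AA against TTP. Of all 11143 genes, 5476, 5612 and 5610 were above 0 in that order. The counts against GFP are measured from the same GFP libraries, and none of these counts was tested. The shares past the fold were 0%, 10% and 6.67% in the order of the 3 comparisons, against 3.54%, 5.45% and 8.72% of all genes in either direction. The libraries did not overlap in 4 (13.3%), 7 (23.3%) and 7 (23.3%) of them, below the 19%, 24.4% and 30.1% of all genes.

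The replicate-number term was as large as the group differences in many carrier genes. Its median range was 0.33 over the 163 genes (0.32 over all genes), and it exceeded the largest difference between groups in 86 of them (52.8%, against 61.0% of all genes). In 19 carrier genes (11.7%, against 17.3% of all genes) it reached 1.5-fold on its own. The widest was Slc29a3, an intracellular nucleoside carrier, at 609, 277 and 392 in GFP, 532, 241 and 344 in TTP and 591, 268 and 380.3 in TTP-AA. Replicate 1 was the highest and replicate 2 the lowest for this gene in each group, over a range of 1.14. Slc7a2 came next with 1.07, where replicate 3 was the highest, at 582, 472 and 989 in the GFP libraries, 617, 497 and 1050.3 in the TTP libraries and 833, 674 and 1415 in the TTP-AA libraries. Wide ranges were also seen for Slc36a1 (0.95), a lysosomal proton-coupled amino acid carrier, and Slc7a1 (0.92). Of the 19 genes, replicate 1 was the highest in 9, replicate 2 in 7 and replicate 3 in 3. Only 2 genes past 1.5-fold, Slc39a3 and Slc36a2, had overlapping groups in the comparison that passed.

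**Figure D4:**
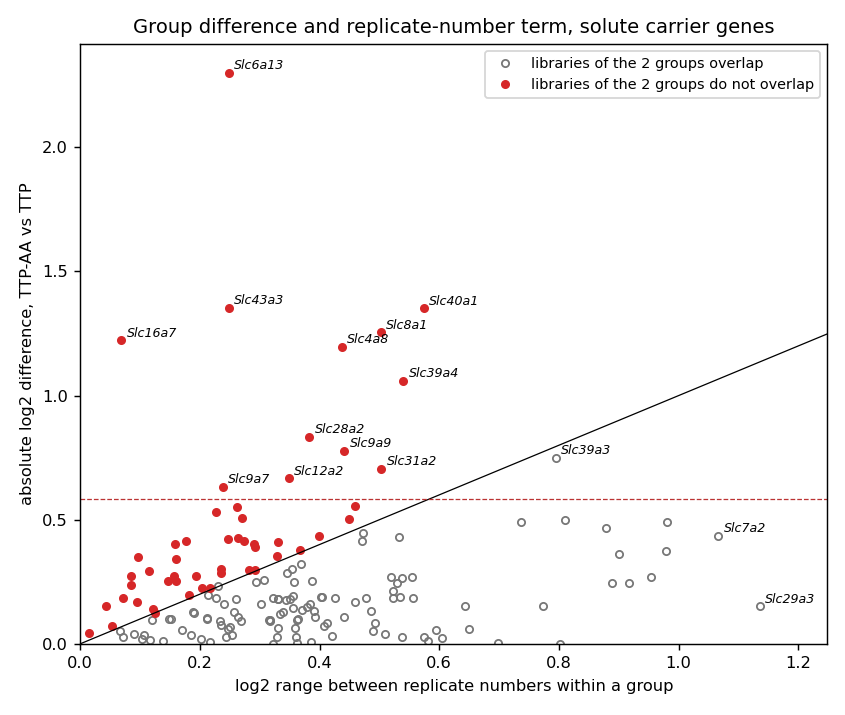
Absolute log2 difference between TTP-AA and TTP (y axis) against the log2 range between replicate numbers within a group (x axis) for the 163 genes; filled points have no overlap between the libraries of the 2 groups, the solid line marks equal values and the dashed line 1.5-fold. Slc6a13 lies farthest above the line, and Slc29a3 and Slc7a2 lie far to the right with small differences.

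Other transport genes were counted for comparison. Of 30 ABC transporters, none passed 1.5-fold for TTP against GFP, 1 was lower in TTP-AA than in GFP (the peroxisomal transporter Abcd2, -0.79) and 2 were under TTP in TTP-AA (Abcd2, -0.66, and Abcb10, -0.64). Of 15 subunits of the V-ATPase proton pump, 1 did so, Atp6v0d2, higher in TTP than in GFP (0.71) and under TTP in TTP-AA (-0.84). Among 21 carriers with names of another form, 1 passed, the mitochondrial carrier Ucp2, above TTP in TTP-AA (0.64). The shares past the fold in any comparison were 6.67%, 6.67% and 4.76% of these lists, against 10.7% of all genes. The carrier chaperones Bsg and Emb were within 1.5-fold throughout.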

How the data were processed

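Total RNA-seq of 9 libraries (3 each of GFP, TTP and TTP-AA) was used as deposited. According to the study's methods and the submitters' processing notes, reads were trimmed with Trim Galore, aligned to GRCm38 with TopHat (TopHat2 2.0.12 in the notes), counted per gene with HTSeq and fitted with DESeq2 1.6.3, with library date and condition as terms. Whether counting used the strand is not given in the sources used here. The values per library deposited by the authors are signal values, named normalized counts but equal to fitted means of the count model times a library factor: of 8 possible singular values of the centred log2 table, 4 are nonzero. DESeq2 of this version by default moderates the fold changes of low genes towards 0, and the sources used here do not say whether this was kept. The authors' mean, a signal value averaged over the libraries after division by size factors, was used only to choose genes. The deposited comparison tables also hold fold changes, standard errors, test statistics and p-values of the authors, which were not used or compared.

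Libraries were scaled by the median of ratios to the geometric mean over the 11143 genes with a mean of at least 50, with no pseudocount, since no value was 0. Differences are of group means on the log2 scale. Same-numbered libraries share a replicate-number term exactly, so the labels' numbers could not be checked as pairs, and whether the number stands for the library date was not tested. The labels call the libraries biological replicates. Counts or coverage per library were not used here, so the depth behind a value is known only through the fitted totals, and no counting interval is given. Positions, exon overlaps, transcript lengths and 3′ UTRs came from a GENCODE annotation of GRCm38. Levels per kb divide by the length of the transcript with the longest coding sequence.

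The genes, the lists and the substrate classes were chosen with earlier results of these data known, and the classes of some single genes (3 adaptors, Slc5a6, Slc43a3, Slc23a2 and Slc16a10), which differ from their family number, were set by hand with the values known. The genes named are, per comparison, up to 8 highest and 8 lowest past 1.5-fold, the 10 highest per kb, 30 carriers known in macrophages, and up to 4 per class by the size of the difference between TTP-AA and TTP. The differences of Slc2a3, Slc29a1 and Slc35a3 are given outside these rules, with the values known. Some carrier genes are not reported here. The alternatives were scaling to the table total or the upper quartile, a pseudocount of 1, a lower and a higher fold (0.32 and 1 on the log2 scale), no filter or a mean of at least 200, leaving out each library, taking off the chromosome median, and counting only groups without overlap. The steps were tested on simulated data. Python 3.11.15, numpy 2.4.6, pandas 2.3.3 and matplotlib 3.10.9 were used.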

Additional observations from a re-analysis of the deposited data

Results flagged for a closer look

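In 4 of the 163 carrier genes (2.45%, against 4.48% of all genes) every TTP library lay on one side of the GFP libraries and every TTP-AA library on the other. Slc6a13, the GABA transporter GAT2, and Slc43a3, a purine nucleobase carrier, were lowest in TTP and highest in TTP-AA, with log2 differences between TTP-AA and TTP of 2.30 and 1.35. Slc4a8, a bicarbonate exchanger, and Slc52a2, a riboflavin carrier, were in the reverse order, with differences of -1.20 and -0.35. The difference between the effects of TTP and TTP-AA was not tested, because the values are fitted means without scatter, and both effects are measured from the same GFP libraries.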

How the results depend on the processing

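No paired analysis was possible because the values per library are fitted means and come with no test: with the replicate number as a block, the differences of same-numbered libraries are equal by construction. Scaling to the table total or the upper quartile and a pseudocount of 1 left all 6 counts within 1.5 times, moving the median of all genes by less than 0.03. With a lower fold (0.32 on the log2 scale), the counts higher and lower became 11 and 18 for TTP against GFP, 22 and 24 for TTP-AA against GFP, and 23 and 18 for TTP-AA against TTP. With a fold of 2 they became 0 and 3, 1 and 0, and 5 and 2. With a mean of at least 200, 0 genes were higher and 2 lower in TTP than in GFP, and without a filter 16 were above TTP in TTP-AA. Taking off the chromosome median gave 2 genes higher in TTP than in GFP, and requiring no overlap gave 0. Leaving out 1 library gave 1 to 4 genes higher and 7 to 10 lower for TTP against GFP, 4 to 7 and 5 to 8 for TTP-AA against GFP, and 9 to 16 and 3 to 7 for TTP-AA against TTP. The count higher in TTP than in GFP was 2 without GFP replicate 1 and 4 without GFP replicate 2 or without TTP replicate 3, that lower in TTP-AA than in TTP was 7 without TTP-AA replicate 1, and that higher in TTP-AA than in TTP was 16 without TTP-AA replicate 2. By construction of the table, these shifts come from the unequal replicate numbers then compared. Of the genes past 1.5-fold, 7 of 9, 5 of 11 and 9 of 13 passed it under every scaling, pseudocount, left-out library and chromosome setting. Those that did not in TTP-AA against GFP were Slc43a3 (0.50 without GFP replicate 3), Slc15a3 (0.54 without TTP-AA replicate 3), Slc31a2 (0.57 without TTP-AA replicate 3), Slc4a8 (-0.58 without GFP replicate 2), Slc24a3 (-0.57 without GFP replicate 1) and Slc6a17 (-0.51 less its chromosome median). In TTP-AA against TTP they were Slc39a3 (0.51 without TTP replicate 3), Slc31a2 (0.56 without TTP-AA replicate 3), Slc12a2 (-0.57 without TTP-AA replicate 2) and Slc9a7 (-0.56 without TTP replicate 1), and in TTP against GFP Slc36a2 (0.42 without GFP replicate 3) and Slc9a9 (-0.47 without GFP replicate 1). No result changed its direction where it was past the fold.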

Other observations

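The 23 carrier genes below a mean of 50 held 7 genes at least 1.5-fold higher in TTP-AA than in TTP (30.4%, against 14.2% of the 2062 genes of the table below that mean), 3 lower in TTP than in GFP (13.0%, against 4.56%) and 1 above GFP in TTP-AA (4.35%, against 9.36%). These shares rest on few genes and were not tested. The largest was Slc22a15, an organic ion carrier, at 62.9, 52.8 and 62.9 scaled fitted counts in GFP, 23.9, 19.9 and 23.9 in TTP and 61.4, 51.4 and 61.3 in TTP-AA. TTP was apart from both other groups, with differences of -1.40 from GFP and 1.36 to TTP-AA. Slc10a6 (0.91), Slc7a7 (0.82), Slc22a18 (0.76), Slc13a2 (0.74), Slc17a8 (0.61) and Slc9a4 (0.61) were the other genes higher in TTP-AA than in TTP. The sodium-proton exchanger Slc9a2 stood at 35.6, 52.1 and 43.6 in GFP and 17.0, 24.7 and 20.9 in TTP (-1.07). No counts lie behind these low values here, so their precision is unknown.

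Carrier genes of the Slc35b to Slc35f and Slco groups (17 genes, listed after the values were seen) held 1 gene past 1.5-fold (5.88%, against 10.7% of all genes in any comparison). Slco5a1, an organic anion carrier family member, was at 217, 159 and 172 in GFP, 59.2, 43.0 and 47.1 in TTP and 157, 115 and 125 in TTP-AA. Its TTP libraries were all below the rest, by -1.87 against GFP, and TTP-AA was above TTP by 1.41.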
